A study of Nannochloropsis oceanica with 15 samples.

Results

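Between 12 h and 24 h of blue light, 3605 of the 9386 genes tested in Nannochloropsis oceanica (38.4%) changed their transcript level past the test, and most of the changes were smaller than 2-fold. The comparison set the 3 libraries taken after 24 h of blue light against the 3 taken after 12 h, which are 6 of the 15 libraries of the study. Genes were tested if they had an FPKM (fragments per kilobase of gene model, divided by a total per library) of at least 1 in at least 3 of these 6 libraries. The cells were wild-type strain IMET1, a single-celled microalga, kept in column bioreactors under continuous light. Both blue groups had been moved from white to blue light and, per the labels, differed in the hours since then. A further 3 groups of 3 libraries were white light at 0 h, red 12 h and red 24 h. No white-light culture of 12 h or 24 h was analysed here, so hours in blue light and the age of the culture cannot be told apart. Whether the 3 libraries of a group were separate cultures is not stated in the labels. The p-values here therefore rest on the spread among libraries, and that spread could be technical alone.

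Nannochloropsis is a marine stramenopile alga with a single plastid, and it stores carbon as triacylglycerol, the main component of its oil. Its main light-harvesting pigments, chlorophyll a and violaxanthin, both absorb blue light, whereas red light is absorbed by chlorophyll a alone. Stramenopile algae sense blue light through aureochromes, transcription factors that carry a flavin-binding light sensor, and through cryptochromes. The deposited gene IDs carry no gene names apart from DGAT1A, an enzyme of the last step of triacylglycerol assembly. Genes are therefore described by ID, structure and position, and neither the light receptors nor any marker of the strain could be checked.

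The 6 blue libraries held 3882923 to 5444324 fragments in genes, as recovered from the steps of the FPKM values. Both depth and fragment length moved with the groups. The blue 12 h libraries had 3882923, 4885202 and 4283658 fragments, and the blue 24 h libraries 4922461, 5444324 and 5371899. Mean fragment length was 138.1 to 148.0 nt at 12 h and 135.5 to 136.5 nt at 24 h. The part of either in the changes described here was not tested. Libraries of a group were close to each other, with a Pearson r across genes of 0.99 to 0.9932 on log2(FPKM + 1), against 0.9733 to 0.9752 between groups. Their fragments differed by more than sampling noise, with a chi-square per degree of freedom of 1.36 to 1.63 within groups and 10.2 to 12.2 between them. The median standard deviation of a gene was 0.0939 at blue 12 h and 0.0830 at blue 24 h on the log2(FPKM + 1) scale. It was 0.379 at red 24 h, where the first library stood apart from the other two, so counts and tests that involve red light are given with and without that library.

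Of the 9386 genes tested, 1977 rose (21.1%) and 1628 fell (17.3%), together 38.4%, by limma with an adjusted p under 0.05. The 3 libraries of 24 h lay above the 3 of 12 h, with no overlap, for 2503 genes (26.7%) and below them for 2217 (23.6%). The changes were mostly small. Of the genes that rose, 436 had a fitted change under 1.2-fold, 1065 one of 1.2-fold to 1.5-fold and 369 one of 1.5-fold to 2-fold on the log2(FPKM + 1) scale. Of those that fell, the same bands held 463, 882 and 209 genes. A change of at least 2-fold was reached by 107 genes that rose (1.14%) and 74 that fell (0.788%), 181 in all (1.93%). A change of at least 4-fold was reached by 2 genes in each direction. The median change was 0.01 over all genes tested, 0.40 over those that rose and −0.35 over those that fell, in log2 units.

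In the fit of the 6 blue libraries, many genes were bounded to a narrow range. The 95% interval of the change lay within 1.2-fold either way for 2053 genes (21.9%) and within 1.5-fold for 7051 (75.1%), and 2049 of the latter had nevertheless passed the test. These intervals rest on the same spread among libraries as the p-values. If that spread is technical alone, they do not bound a change between cultures. Of all 9756 models, 0 were above 0 in every blue 12 h library and at 0 in every blue 24 h library. In the other direction 3 models were listed at 0 in every 12 h library and above 0 in every 24 h library. Among all models at 0 in every 12 h library, the highest value in any 24 h library was 1.01 FPKM. The 370 models that were not tested had means of at most 1.30 FPKM over the 6 libraries. The number of calls rested on which libraries entered the fit: with the spread shared over all 15 libraries, 434 genes rose and 265 fell. With 14 libraries, leaving out the first of red 24 h, 1414 rose and 1032 fell.

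**Figure D1:**
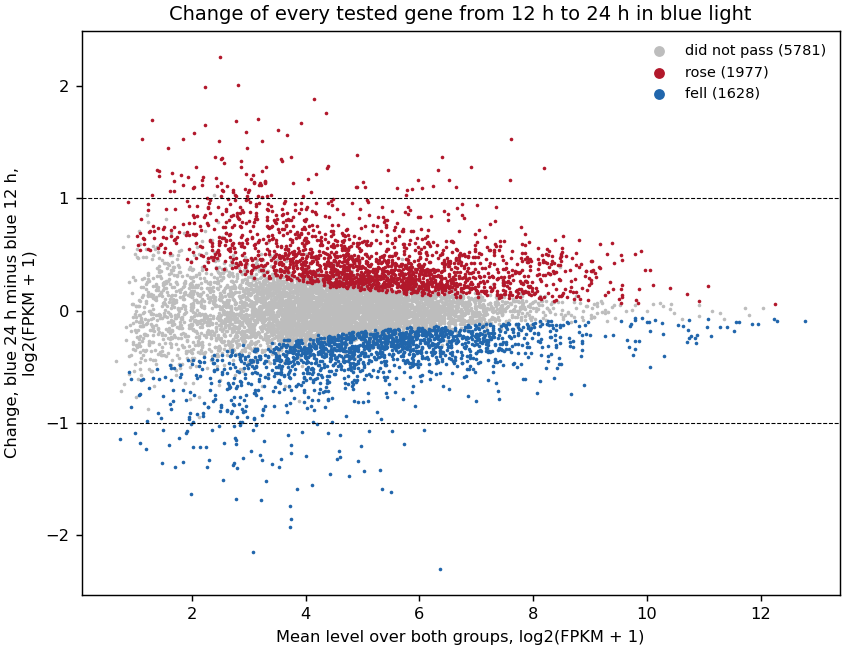
Change from blue 12 h to blue 24 h against the mean level for each of the 9386 genes tested (points), both on the log2(FPKM + 1) scale, with dashed lines at a 2-fold change. The 1977 genes that rose and the 1628 that fell run over the whole range of levels, and the points beyond the dashed lines lie mostly among genes of low and middle level.

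More of the measured transcript pool came from the genes that rose. They held 24.37%, 24.37% and 24.38% of the summed FPKM in the blue 12 h libraries and 30.59%, 30.36% and 30.59% in those of 24 h. The genes that fell held 33.90% to 33.95% at 12 h and no more than 28.33% at 24 h. These shares describe genes that the same libraries had chosen and are no test. They are also shares of what was sequenced: in a culture sampled whole, fewer cells with a transcript and less of it per cell cannot be told apart.

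The genes with at least 2-fold changes were of low to middle level at 12 h. The 107 that rose had a median FPKM of 4.22, 4.51 and 4.40 in the blue 12 h libraries and 11.8, 11.6 and 11.4 in those of 24 h. Their median in the 3 white-light libraries was 23.0, 30.3 and 28.1, and in red 12 h it was 5.47 to 6.38. The 74 that fell had 14.2, 13.0 and 12.9 at blue 12 h, 4.82, 4.60 and 4.60 at blue 24 h, and 39.8, 47.6 and 48.1 in white light. Both sets were thus higher in white light than in any red or blue group by their medians. The first set stood between its 12 h and white-light medians at blue 24 h, and the second lay further below white light than it had at 12 h. The median over all genes tested stayed between 23.9 and 24.4 in the 6 blue libraries.

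**Figure D2:**
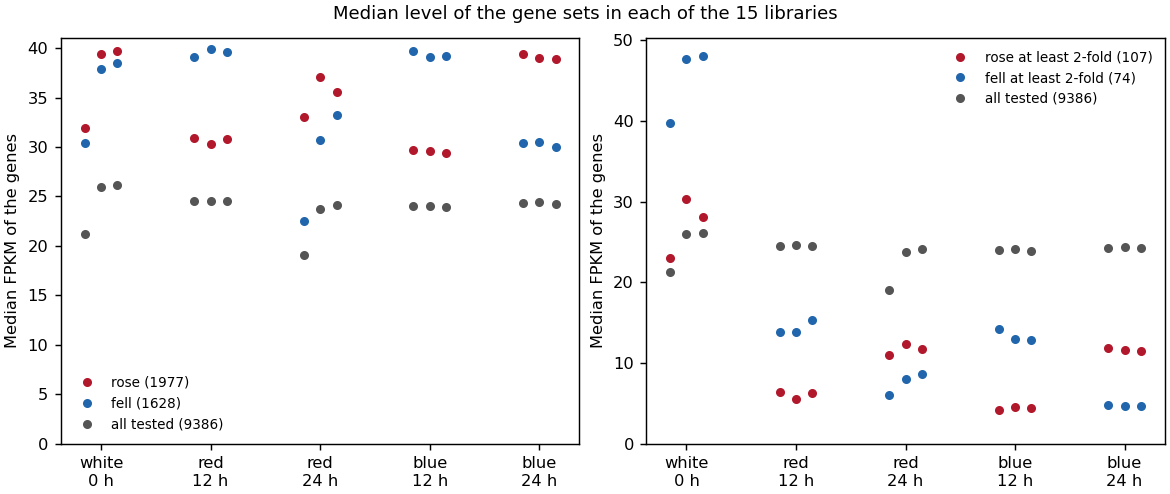
Median FPKM of gene sets in each of the 15 libraries (points, 3 per group), for all changed genes on the left and for those that changed at least 2-fold on the right, with all tested genes in grey. On the right, the 107 genes that rose lie near 4.4 FPKM at blue 12 h and 11.6 at blue 24 h, the 74 that fell drop below them at blue 24 h, and both lie higher in white light.

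The rule for named genes gave 2 that rose and 2 that fell, those with the largest fitted change whose groups did not overlap and whose mean reached 10 FPKM in either group. The gene scaffold00247.g7013 is a model of 1 exon on the minus strand of scaffold00247, from 1272687 to 1275060. It measured 1.92, 3.30 and 2.31 FPKM at blue 12 h and 13.9, 12.8 and 12.1 at blue 24 h. The groups were far apart, and the means of 2.51 ± 0.708 and 12.9 ± 0.904 (SD, n = 3 each) stood 5.16-fold apart in FPKM. The fitted change was 2.01 ± 0.15 log2 units (SE), with an adjusted p of 1.03e-05 by limma. In white light its level was as low as at blue 12 h, at 2.23 ± 0.350 FPKM, whereas at red 12 h it was already 25.0 ± 2.18. At red 24 h its libraries measured 9.16, 23.6 and 27.6, the lowest of which was the library that stood apart. The change in blue exceeded the change in red by 2.44 ± 0.44 log2 units, with an adjusted p of 0.0226 by limma over 12 libraries. Without the first red 24 h library the difference was 1.97 ± 0.20, with an adjusted p of 5.65e-05 by limma. This call held in 18 of 26 alternatives, and the 8 that lost it each left out 1 library, with an adjusted p of up to 0.0738 by limma.

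The gene with the largest fitted rise, scaffold00271.g8087, rested on very few fragments. Its model is a single exon of 215 nt on the minus strand of scaffold00271, from 524061 to 524275, not much longer than the sequenced fragments. It measured 0, 2.36 and 2.81 FPKM at blue 12 h, which stood for 0, 1 and 1 fragments. At blue 24 h it measured 6.91, 14.5 and 10.5 FPKM, which stood for 3, 7 and 5 fragments. Relative to all fragments, 24 h was 6.22 times 12 h, with an exact 95% interval of 1.45 to 56.1 that covers counting error only. The fitted change was 2.26 ± 0.45 log2 units, with an adjusted p of 0.00317 by limma, and 0.127 with all 15 libraries in the fit. White light, at 1.78 to 12.4 FPKM, overlapped both blue groups. Red 24 h, at 11.7, 0 and 9.43 FPKM, overlapped both as well, and red 12 h, at 8.85, 5.47 and 2.85, overlapped blue 24 h. The change in blue less that in red was 2.56 log2 units, with an adjusted p of 0.327 by limma, and 0.0651 without the first red 24 h library, so neither passed.

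The gene scaffold00324.g8953 had the largest fitted fall on the log2(FPKM + 1) scale, though not the largest ratio in FPKM. Its model has 3 exons, 539 nt in all, on the plus strand of scaffold00324 from 318992 to 319846. It measured 198, 174 and 175 FPKM at blue 12 h and 36.3, 37.5 and 34.5 at blue 24 h. The means of 183 ± 13.6 and 36.1 ± 1.52 (SD, n = 3 each) put it 5.05-fold lower in FPKM at 24 h. The fitted change was −2.30 ± 0.06 log2 units, with an adjusted p of 2.72e-08 by limma. Its highest level was in white light, at 368 ± 37.8 FPKM, and it stood at 260 ± 21.9 in red 12 h. The red 24 h libraries measured 257, 126 and 101. The change in blue less that in red was −1.51 log2 units, with an adjusted p of 0.0721 by limma over all 12 libraries, which did not pass. Without the first red 24 h library it was −1.11, with an adjusted p of 0.000123 by limma. The difference passed in 7 of 26 alternatives. In red itself the gene changed by −0.80 log2 units over all 6 red libraries, with an adjusted p of 0.206 by limma. That red change was −1.19 without the first red 24 h library, with an adjusted p of 0.000261 by limma.

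The other named gene that fell, scaffold00007.g54, is a model of 1 exon on the plus strand of scaffold00007 from 148376 to 149886. It measured 20.4, 13.5 and 16.8 FPKM at blue 12 h and 2.59, 3.71 and 2.75 at blue 24 h. The groups did not overlap, and the mean was 5.60-fold lower in FPKM at 24 h. The fitted change was −2.15 ± 0.16 log2 units, with an adjusted p of 9.83e-06 by limma. White light was higher than every other group at 57.9 ± 7.15 FPKM, and red 12 h and red 24 h measured 12.0 ± 0.316 and 7.87 ± 2.33. The change in blue less that in red was −1.56 log2 units, with an adjusted p of 0.0251 by limma, and −1.77, with 0.000298, without the first red 24 h library. This call held in 15 of 26 alternatives, and was lost with the replicate block, with an adjusted p of 0.0574 by limma. The tested gene before scaffold00007.g54, at 140468 to 147231 on the opposite strand, rose from 2.53 to 5.86 FPKM (adjusted p 0.000401 by limma). The tested gene after scaffold00007.g54, at 151220 to 154281 on the minus strand, fell from 26.9 to 21.8 FPKM (adjusted p 0.0164 by limma). For each of the 4 genes named by the rule, an exact two-sided permutation test over the 6 libraries gave p = 0.1, the smallest that 3 against 3 allows. That value follows from the rule, which took only genes whose groups did not overlap.

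DGAT1A encodes a diacylglycerol acyltransferase, which attaches the final fatty acid when triacylglycerol is made. Its model, on the plus strand, spans positions 1 to 2030 of isotig00738, a contig of its own. It measured 35.6, 33.8 and 36.8 FPKM at blue 12 h and 33.4, 35.2 and 37.1 at blue 24 h. The groups overlapped throughout. The fitted change was −0.01 ± 0.07 log2 units, with an adjusted p of 0.937 by limma and p = 0.8 in an exact two-sided permutation test. The 95% interval ran from −0.16 to 0.14 log2 units, so a change of the size of the 2-fold genes lay outside it. With all 15 libraries in the fit the SE was 0.17. The level was 26.8 ± 5.30 FPKM in white light, 33.9 ± 1.25 at red 12 h and 28.1 ± 6.92 at red 24 h. Its change in blue less that in red was 0.28 log2 units, with an adjusted p of 0.501 by limma, and 0.07, with 0.702, without the first red 24 h library.

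**Figure D3:**
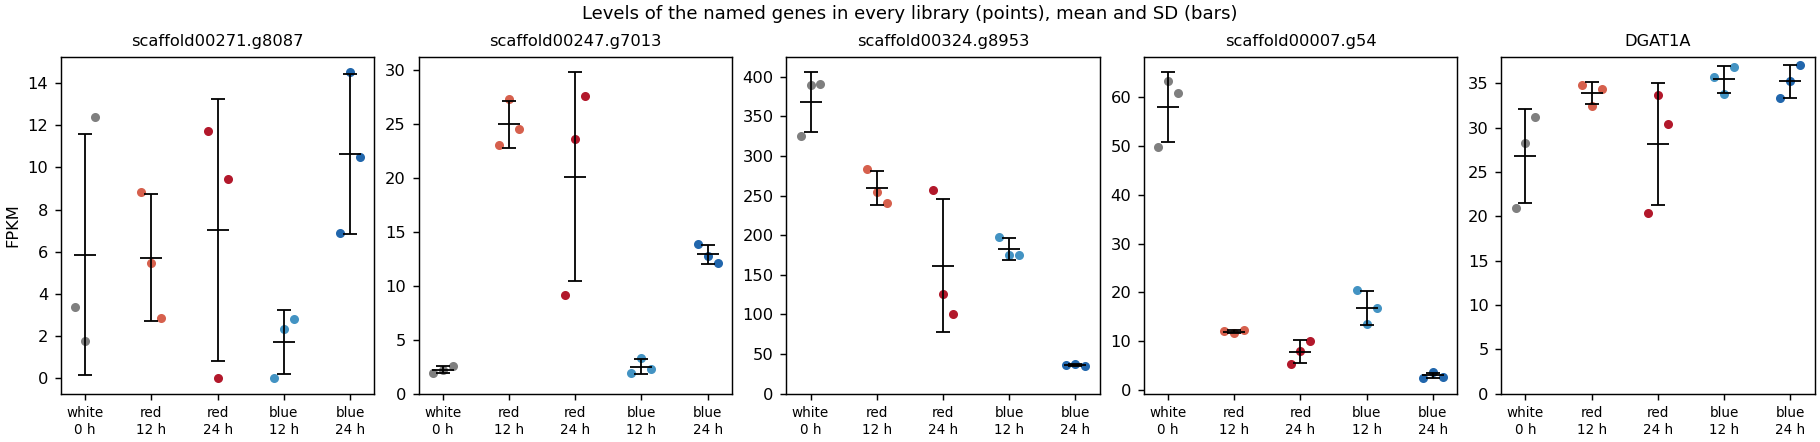
FPKM of the 4 genes named by the rule and of DGAT1A in each of the 15 libraries (points, 3 per group), with the mean and SD of each group as bars. The blue 24 h points lie clear of the blue 12 h points in the 4 genes, while the DGAT1A points of both groups lie between 33.4 and 37.1 FPKM.

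Among the 50 genes of highest mean FPKM in blue, 7 rose and 28 fell, against 21.1% and 17.3% of all genes tested, and none changed 2-fold. Their median change was −0.08 log2 units. Together they held 20.06%, 19.93% and 19.96% of the summed FPKM at 12 h and 18.65%, 18.84% and 18.78% at 24 h. The count depended on the scaling: quantile normalization gave 14 that rose and 16 that fell, while scaling to the same sum without these genes gave 4 and 33. With all 15 libraries in the fit, 1 rose and 1 fell.

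The share of genes called was also set beside expression level, with no test. Genes were split into quartiles by their mean FPKM in white and red light, which the blue comparison did not use. In the lowest quartile, under 13.0 FPKM, 13.6% rose and 10.0% fell. In the highest, over 51.8 FPKM, 32.3% rose and 26.0% fell. With all 15 libraries in the fit this order nearly vanished, at 4.47% and 2.34% in the lowest quartile and 5.67% and 2.94% in the highest. Of the large changes, 42 of the 107 genes that rose at least 2-fold lay in the lowest quartile and 20 in the highest. The 74 that fell at least 2-fold were spread evenly, at 19, 19, 19 and 17 per quartile. The log2(FPKM + 1) scale understates the change of low genes.

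Shares of calls by gene length and exon number are likewise a description. In the quartile of shortest gene models, under 1165 nt of exon, 24.3% rose and 12.7% fell. In the quartile of longest, over 2545 nt, 16.2% rose and 23.2% fell. Fragment length was shorter in the blue 24 h libraries, and its part in the pattern was not tested. With each library's trend over exon length removed, the shortest quartile had 18.4% that rose and 17.2% that fell and the longest 17.7% and 19.6%. Removing that trend flattens differences by length by construction, so it does not test their source. With all 15 libraries in the fit, 3.54% of the shortest rose and 1.83% fell, and 5.07% of the longest rose and 4.39% fell. The order by length was thus turned for rises and kept for falls. The median changes of the shortest and longest quartiles were 0.06 and −0.05 log2 units in both fits. That is so by construction, since added libraries leave the blue group means unchanged. These medians moved with the processing, to 0.03 and −0.07 under quantile normalization and −0.0005 and −0.02 with the length trend removed. They were 0.02 and −0.09 with libraries scaled to an equal sum that left out the top 50 genes. By exon number, the share that rose was 23.7% for 8 or more exons, 22.7% for 4 to 7, 21.5% for 2 to 3 and 18.5% for 1. The shares that fell were 19.2%, 17.2%, 17.5% and 16.8% in the same order. Under quantile normalization 21.15% of the genes with 8 or more exons rose and 21.15% fell, against 16.47% and 18.43% with 1 exon. With all 15 libraries in the fit, 5.88%, 4.88%, 4.33% and 4.44% rose in the same order. Within the shortest quartile the share that rose was 19.2% of 923 genes with 1 exon, 24.7% of 851 with 2 to 3 and 31.4% of 555 with 4 to 7. Of the 18 genes with 8 or more exons there, 55.6% rose. Within the longest quartile the classes of 1, 2 to 3 and 4 to 7 exons gave 13.7%, 19.1% and 12.2%, with no such order. The 364 genes with 8 or more exons there gave 20.05%. Of the genes that rose at least 2-fold, 37.4% had a single exon, against 30.5% of all tested.

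**Figure D4:**
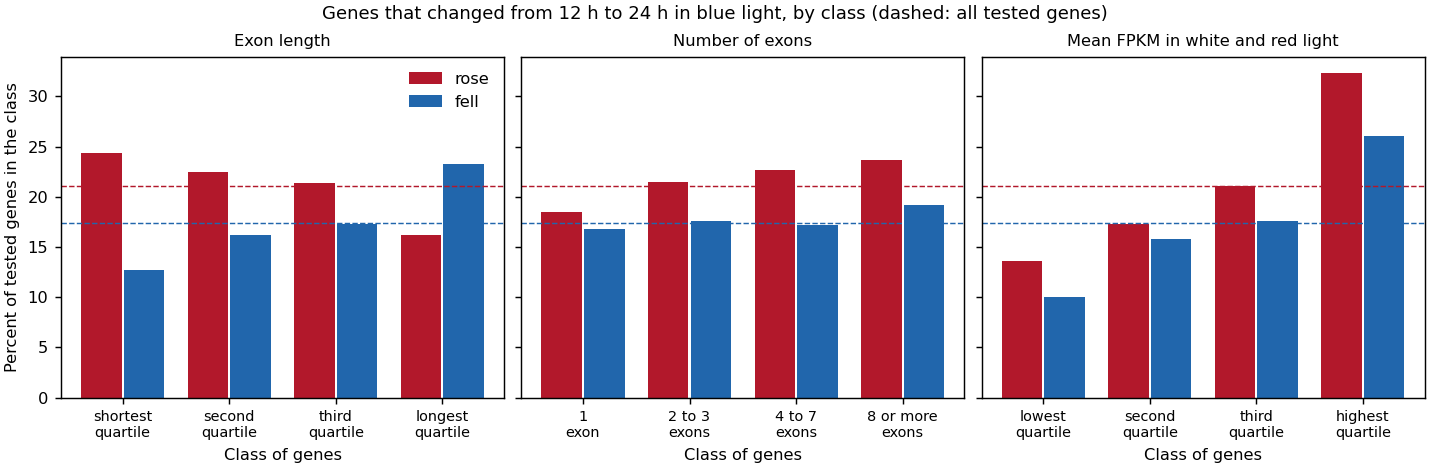
Percent of tested genes that rose (red) and fell (blue) in classes by exon length, exon number and mean FPKM in white and red light, with dashed lines at the 21.1% and 17.3% of all tested genes. The share that fell climbs from 12.7% in the shortest quartile to 23.2% in the longest, and both shares climb with expression level in this fit of 6 libraries.

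The changed genes lay on many scaffolds. Positions are given on the scaffolds of the deposited models, IMET v2. On the 33 scaffolds with at least 50 tested genes, 7.97% to 28.7% of genes rose and 9.92% to 27.5% fell. Falls outnumbered rises by the most on scaffold00104, where 11 of 138 genes rose and 38 fell, and by fewer genes on 5 other scaffolds. With the length trend removed the counts on scaffold00104 were 10 and 38, and with all 15 libraries in the fit they were 3 and 6. The largest share of rises was on scaffold00271, where 76 of 265 genes rose and 33 fell. Among the outermost 5 genes at either end of these scaffolds, 17.6% of 330 rose and 15.5% fell, against 21.7% and 17.3% of the 8134 inner genes. The 107 genes that rose at least 2-fold lay on 38 scaffolds and the 74 that fell on 32, with 8 adjacent pairs in each set.

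Adjacent genes were compared with each other. Of 9107 pairs of adjacent tested genes, both rose in 557 (6.12%), both fell in 414 (4.55%), and 509 (5.59%) changed in opposite directions. The Pearson r of their log2 changes was 0.14 across pairs, which share libraries and often depth and are not independent. It was 0.17 for the 3058 divergent pairs, 0.12 for the 3035 convergent pairs and 0.14 for the 3014 pairs on one strand. Runs of at least 4 adjacent genes that all passed in one direction numbered 32 for rises, with 142 genes, and 15 for falls, with 66 genes. Of all genes tested, 21.1% rose and 17.3% fell, and such shares alone give some pairs and runs. How many they would give was not worked out, so no clustering is read from these counts. Runs were formed in the fit of the 6 blue libraries only.

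The longest runs of rises held 6 genes. On scaffold00182, from 508707 to 517008, the median FPKM of 6 genes was 15.6, 17.6 and 17.2 in the blue 12 h libraries and 34.9, 33.2 and 35.7 in those of 24 h. The fitted changes of its genes ran from 0.31 to 1.27 log2 units, with a median of 0.86. Its white-light median was 38.5 FPKM, close to the level of blue 24 h, and red moved from 13.3 at 12 h to 27.3 at 24 h. On scaffold00259, from 578769 to 595384, the median of 6 genes went from 36.5 to 38.5 FPKM at 12 h to 47.6 to 49.2 at 24 h, above the white-light median of 29.7. The gene at place 5 of this run only just passed, with an adjusted p of 0.0495 by limma. On scaffold00295, from 486126 to 500930, 5 genes of low level went from medians of 3.90 to 4.27 FPKM to 6.22 to 7.90.

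The longest run of falls also lay on scaffold00295, from 268408 to 289543, where the median of 7 genes was 21.3 to 23.5 FPKM at blue 12 h and 16.6 to 17.5 at 24 h. The fall was small for most of them, with a median of −0.27 log2 units and a range of −1.11 to −0.17. The length of this run rested on calls near the threshold of 0.05. Its genes at places 2, 3 and 7 had an adjusted p of 0.0491, 0.0411 and 0.0499 by limma. On scaffold00262, from 53716 to 61710, 5 genes of high level went from medians of 204 to 234 FPKM to 127 to 132, with a median change of −0.61. On scaffold00247, from 223284 to 239573, 5 genes went from 72.8 to 80.3 FPKM to 64.0 to 66.7, with a median change of −0.33. In each of these 6 runs the medians of the 12 h and 24 h libraries did not overlap, which follows from how runs were chosen.

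Red light over the same interval offers libraries that the blue comparison did not use. Over all 6 red libraries, 141 genes rose (1.5%) and 50 fell (0.533%) of the 9386 genes. Without the first red 24 h library, 1517 rose (16.2%) and 1178 fell (12.6%). The split of all 6 depended on scaling, with 287 and 177 under quantile normalization and 272 and 161 with the length trend removed. Without that library, 853 genes rose in both colours, which is 43.2% of the rises in blue and 56.2% of those in red. A further 620 fell in both, 38.1% of the falls in blue and 52.6% of those in red. Opposite calls were fewer, at 46 genes that rose in blue and fell in red and 85 that fell in blue and rose in red. With all red libraries the shared calls were 79 rises and 39 falls, and the opposite calls 0 and 7.

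Genes with large changes in blue mostly moved the same way in red. Without the first red 24 h library, 78 of the 107 genes that rose at least 2-fold in blue rose in red too and 1 fell, with a median change in red of 0.98 log2 units. Of the 74 that fell at least 2-fold, 49 fell in red and 1 rose, with a median of −0.69. The 78 and 49 genes are 72.9% and 66.2% of their sets. Of all genes tested, 16.2% rose and 12.6% fell in red without that library. The medians over all genes tested were 0.01 in red and 0.01 in blue. Each red 24 h library taken alone against the mean of red 12 h gave medians of 0.62, 0.96 and 1.03 for the first set and −0.998, −0.70 and −0.64 for the second. The first library also had a median of −0.30 over all genes tested, whereas the others had 0.02 and 0.01. With all 6 red libraries, 29 of the 107 rose and 11 of the 74 fell, against 1.5% and 0.533% of all genes tested.

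The difference between the colours was tested directly. Over 12 libraries the change from 12 h to 24 h differed between blue and red for 167 genes (1.78%), with the change higher in blue for 51 (0.543%) and lower for 116 (1.24%). Without the first red 24 h library it differed for 1199 genes (12.8%), with 495 higher (5.27%) and 704 lower (7.5%). Leaving out the third red 24 h library instead gave 710 genes, with 443 higher and 267 lower, so both the count and the majority direction rested on single red libraries. Leaving out any 1 of the 6 blue libraries gave 53 to 64.

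The groups of genes behind the difference were formed without the first red 24 h library, and the same test chose them. Their red 24 h levels are nevertheless given over all red 24 h libraries. The most common pattern, in 263 genes, was a rise in red with no call in blue. Over all 12 libraries that pattern held 37 genes, a fall in blue with no call in red 38, a rise in blue with no call in red 30 and a fall in red with no call in blue 9. The 263 genes had a median FPKM of 64.9 in white light, 17.9 at blue 12 h and 19.0 at blue 24 h. In red their median was 17.1 at 12 h and 30.6 over all red 24 h libraries. In 190 genes there was a fall in red with no call in blue, with medians of 32.1 and 19.2 in red and 26.5 and 26.7 in blue. In 204 genes there was a fall in blue with no call in red, from a median of 86.1 to 68.2 FPKM. In 167 genes there was a rise in blue with no call in red, from 27.9 to 37.5 FPKM. The 85 genes with opposite calls that fell in blue had medians of 160 FPKM in white light, 76.1 and 65.7 in blue, and 65.4 and 98.8 in red. The 46 that rose in blue went from 48.6 to 62.2 FPKM there and from 54.9 to 38.3 in red. Among the 74 genes that fell at least 2-fold in blue, the difference passed with the change lower in blue for 28 and higher for 1, and for 8 and 1 with all 12 libraries. Among the 107 that rose at least 2-fold, it was higher in blue for 17 and lower for 12, and for 5 and 3 with all 12 libraries. Since these genes were chosen for a large change in blue, nothing is read from these counts against the 5.27% and 7.5% of all genes.

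**Figure D5:**
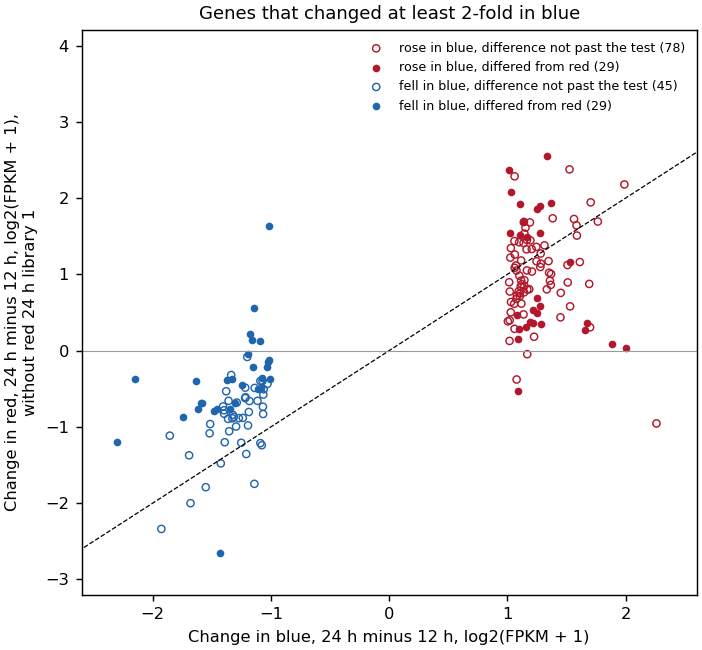
Change from 12 h to 24 h in red without the first red 24 h library against the change in blue, both on the log2(FPKM + 1) scale, for the 107 genes that rose and the 74 that fell at least 2-fold in blue (points, filled where the difference between colours passed the test), with a dashed line of equal change. Most points lie on the same side of 0 in both colours. The genes were chosen for a large change in blue, so a smaller change in red is partly built in.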

How the data were processed

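The labels describe RNA sequencing of total RNA from 15 libraries in 5 groups of 3. The authors deposited FPKM values, 1 table per group, and a table of 9756 gene models on 284 scaffolds. Cufflinks 2.0.4, TopHat and TopHat2 2.0.4 are named in the submitters' processing notes, and settings are not given in the sources used here. Values were used as deposited, without rescaling. FPKM is not a count, but its low values gave whole fragments in each library, 100% within a tolerance of 0.1, checked on values up to 30 fragments where effective model length reached 500 nt. This gave the depths, 3130104 to 6442245 fragments in genes per library.

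Changes were tested in R 4.3.3 with limma 3.58.1 and its trended eBayes step, two-sided on log2(FPKM + 1), with Benjamini-Hochberg adjustment over all 9386 genes tested at a threshold of 0.05. Only the libraries compared entered each fit, since 1 red 24 h library would widen a shared spread. The code was tested on simulated data. Tables and figures used Python 3.11.15.

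The members, lists and tests were chosen with earlier results of these data known. Genes were named by a rule of 2 that rose and 2 that fell, by largest fitted change, if the groups had no overlap and either mean reached 10 FPKM, plus any gene with a name. None of the gene IDs matched the 160 genes of the reference table. Of the gene lists, triacylglycerol assembly matched 1 of 18 members, and light harvesting (6), blue-light receptors (6) and carbon fixation (5) matched 0. Alternatives were other pseudocounts, filters, scalings, fits and weights, voom on recovered fragments, the replicate number as a block, and leaving out each library.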

Additional observations from a re-analysis of the deposited data

Results flagged for a closer look

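A tested difference between blue and red light in the change from 12 h to 24 h marked 3 results for a closer look. The change of scaffold00247.g7013 was higher in blue than in red by 2.436 log2 units, with an adjusted p of 0.0226 by limma and a range over the alternatives from 2.77e-06 to 0.0738, where 18 of 26 passed. The change of scaffold00007.g54 in blue less that in red was −1.56 log2 units, with an adjusted p of 0.0251 by limma and a range from 8.31e-06 to 0.0882, where 15 of 26 passed. The number of genes with such a difference was 167 over all 12 libraries, and 1199 without the first red 24 h library. No group had the 4 or more libraries needed to look for a library that stands apart gene by gene.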

How the results depend on the processing

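In blue light, no gene called in both settings turned its direction under any of the 20 alternatives but 1, under quantile normalization. Leaving out each blue library in turn gave 1599 to 1849 genes that rose, 1312 to 1454 that fell and 185 to 194 that changed at least 2-fold. With all 15 libraries in the fit 434 rose and 265 fell, and with 14 libraries 1032 fell. The 2-fold count of 181 was 287 with a pseudocount of 0.1 and 308 with voom. Rises were 54.8% of the calls, and 46.4% with libraries scaled to an equal sum that left out the top 50 genes. DGAT1A had an adjusted p of 0.684 to 0.982 with 1 library left out, and its sign turned when library 3 of blue 12 h (0.859) or library 1 of blue 24 h (0.791) was left out.

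In red light, where 141 genes rose and 50 fell, rises and falls were 86 and 33 with a filter of 5 FPKM, 287 and 177 with quantile normalization, 242 and 85 with the same median, and 52 and 16 with the same sum. They were 272 and 161 with the length trend removed, 1188 and 1516 with all 15 libraries, 1602 and 1309 with 14, and 3452 and 3147 with array weights. Rises were 72 with voom. Leaving out 1 library gave 0 to 1517 rises and 0 to 1178 falls by limma. Over all genes the median red change was −0.09 log2 units, 0.05 with the same median and −0.25 with the same sum.

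The 167 genes that differed between colours were 105 with the filter of 5 FPKM, 257 with quantile normalization, 74 with the same sum, 312 with the length trend removed, 727 with 14 libraries and 106 with voom. Leaving out 1 library gave 53 to 1199. The cause of these shifts was not tested.

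The blue 12 h and 24 h libraries share only a replicate number: deviations of libraries of the same number correlated at 0.00173, −0.00654 and −0.01. With the replicate block 1896 genes rose and 1551 fell in blue, 43 rose and 9 fell in red, and 82 differed between colours. Depth limits genes of few fragments, such as scaffold00271.g8087.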
